A study of Rattus norvegicus with 9 samples.

Results

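The collagen genes were followed in liver RNA from 9 male Sprague-Dawley rats. Every gene whose symbol has the form of a collagen chain (Col, a number, a, a number) in either of the deposited tables was taken as a member, which gave 42 of the 17156 genes listed. Of these, 10 encode fibrillar chains, 9 network chains, 8 FACIT chains (fibril-associated collagens), 6 beaded filament chains and 9 belong to other types. The table of the normal control and model groups lists 40 of them and that of the TA and model groups lists all 42, and Col9a1 and Col23a1 are the pair listed only in the latter. Col1a2, Col19a1 and Col21a1 were not analysed here.

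The normal control group (labelled rat wt) held 3 livers, and the sources used here do not give what those rats received. The 3 rats of the model group had been given CCl4, a liver toxin used to induce fibrosis, in oil by gavage at 2 ml/kg for 9 weeks. The 3 rats of the TA group had been given the same CCl4 for 9 weeks and then tormentic acid (TA), a plant triterpene, at 3 mg/kg for 6 weeks. Livers of both CCl4 groups carry the label hepatitis stage. RNA came from whole liver, so that fewer cells of a type and less RNA per cell cannot be told apart in any value below. The question was how the collagen genes differed in Model VS Normal, TA VS Model and TA VS Normal.

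Collagens are the main structural proteins of the extracellular matrix, and their chains wind into a helix that is hydroxylated in the cell, secreted, trimmed and crosslinked. Fibrillar collagens such as types I and III form the scar of a fibrotic liver, where activated hepatic stellate cells and portal fibroblasts are known as their main source. Network collagens form basement membranes and other sheets, FACIT collagens sit on the surface of fibrils, and type VI forms beaded filaments beside cells. Type XVIII, whose end fragment is endostatin, is known as a collagen that hepatocytes make.

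Counted reads ran from 13156735 to 18090405 per liver. The first model rat (Model 1) stood apart from the other libraries. Its 50 most counted genes took 27.9% of its reads, against 40.4% to 45.7% in the other 8 livers. The hepatocyte markers Alb, Apoa1, Ttr, Serpina1, Tf and Cyp2e1 together reached 36649 CPM in Model 1 against at least 101691 in every other liver, where CPM is a gene's count scaled to the size of its library, here corrected for composition by TMM. Most fold changes that involve the model group are therefore also given without Model 1.

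Of the 6 type IV collagen genes, the RefSeq annotation of assembly GRCr8 places Col4a1 and Col4a2 head to head on opposite strands, so that their promoter windows (250 bases before the start to 50 after it) share 176 bases. The windows of Col4a3 and Col4a4 share 88 bases, and those of Col4a5 and Col4a6 lie 914 bases apart. Both genes of the first pair rose in Model VS Normal. The windows of both pairs are given 5′ to 3′ on the gene's own strand, with capitals marking CCAAT or ATTGG and GGGCGG or CCGCCC.
Col4a1, chr16:84885347-84885646, plus strand: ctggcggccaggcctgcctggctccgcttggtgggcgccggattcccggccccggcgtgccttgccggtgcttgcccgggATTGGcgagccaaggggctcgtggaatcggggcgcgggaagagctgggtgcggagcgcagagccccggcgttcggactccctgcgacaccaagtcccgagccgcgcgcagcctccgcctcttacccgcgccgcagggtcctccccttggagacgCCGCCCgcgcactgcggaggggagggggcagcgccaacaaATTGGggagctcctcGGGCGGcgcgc
Col4a2, chr16:84885471-84885770, minus strand: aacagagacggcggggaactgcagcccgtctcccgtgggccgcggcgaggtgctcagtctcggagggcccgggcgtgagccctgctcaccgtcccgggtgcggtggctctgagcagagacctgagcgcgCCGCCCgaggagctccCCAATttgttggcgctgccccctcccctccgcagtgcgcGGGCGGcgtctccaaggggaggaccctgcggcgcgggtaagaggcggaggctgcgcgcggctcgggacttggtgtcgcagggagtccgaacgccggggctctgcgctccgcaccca
Col4a3, chr9:91323740-91324039, plus strand: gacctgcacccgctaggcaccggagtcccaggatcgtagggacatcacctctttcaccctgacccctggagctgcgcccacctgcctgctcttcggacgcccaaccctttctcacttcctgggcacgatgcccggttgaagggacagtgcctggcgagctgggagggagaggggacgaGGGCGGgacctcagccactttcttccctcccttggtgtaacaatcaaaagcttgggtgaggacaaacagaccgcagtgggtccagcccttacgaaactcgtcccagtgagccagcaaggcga
Col4a4, chr9:91323528-91323827, minus strand: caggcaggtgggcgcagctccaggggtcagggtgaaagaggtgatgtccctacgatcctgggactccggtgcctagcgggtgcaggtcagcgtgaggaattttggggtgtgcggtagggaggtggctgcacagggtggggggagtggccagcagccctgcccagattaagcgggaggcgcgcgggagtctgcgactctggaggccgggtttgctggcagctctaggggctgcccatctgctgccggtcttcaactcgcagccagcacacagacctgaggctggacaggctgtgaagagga
The capitals show that the windows of Col4a1 and Col4a2 hold both motifs. All marks in the Col4a2 window lie in the 176 shared bases and are sites also marked in the Col4a1 window, read on the other strand. These sites count for both genes in the numbers below. The window of Col4a3 holds a GC box alone, and that of Col4a4 holds neither. A CCAAT box (CCAAT or ATTGG) was present in 10 of the 33 members with a promoter window, or 30.3%, and in 37.7% of all 27457 windows. A GC box (GGGCGG or CCGCCC) was present in 19 of the 33, or 57.6%, and in 34.9% of all windows. A TATA box (TATAAA or TTTATA) was present in 3 of the 33, or 9.09%, and in 14.3% of all windows. These are matches of letters on either strand, not measured binding.

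All 42 collagen genes together took 0.110%, 0.0903% and 0.0903% of the counted reads in the normal livers. They took 2.85% in Model 1 and 0.303% and 0.284% in the other model livers. The TA livers lay between, at 0.263%, 0.181% and 0.165%. On the CPM scale the summed level was 1305, 1052 and 1107 in the normal livers, 16886, 2625 and 2702 in the model livers, and 2641, 2021 and 1796 in the TA livers. All model livers were above all normal livers, and so were all TA livers. The first TA rat lay between Model 2 and Model 3, so that the TA and model groups overlapped. The ratio of the group means was 6.41 for the model to the normal livers and 2.31 without Model 1. For the TA to the model livers it was 0.291, and 0.808 without Model 1. For the TA to the normal livers it was 1.86.

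**Figure D1:**
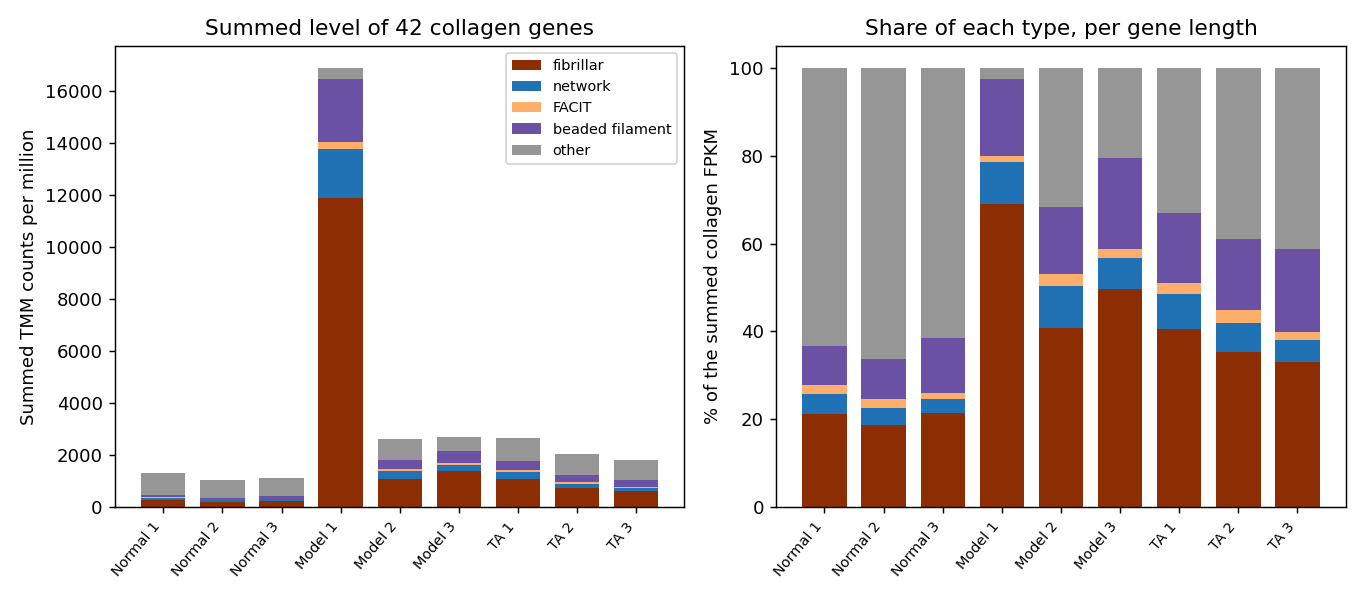
The left plot shows the summed TMM CPM of the 42 collagen genes in each liver, stacked by collagen type. The right plot shows the share of each type in the summed collagen FPKM, in percent: fibrillar collagens made up 18.6% to 21.5% in the normal livers, 40.8% to 69.0% in the model livers and 33.0% to 40.5% in the TA livers, and Model 1 is the tallest bar on the left.

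The makeup of the collagen pool also differed between the groups. Per gene length (authors' FPKM), Col18a1 alone held 59.8% to 65.2% of the collagen signal in the normal livers. Its share was 2.27% in Model 1, 31.3% in Model 2 and 20.2% in Model 3, and 32.5% to 40.3% in the TA livers. Fibrillar chains went the other way, with 18.6% to 21.5% in the normal livers, 40.8% to 69.0% in the model livers and 33.0% to 40.5% in the TA livers. Network chains held 3.13% to 4.50%, 7.15% to 9.45% and 4.94% to 7.94% in the normal, model and TA livers. Beaded filament chains held 8.71% to 12.5%, 15.3% to 20.7% and 16.0% to 18.9%. FACIT chains held between 1.34% and 2.87% in every liver. The ranges of the fibrillar, network and beaded filament shares did not overlap between normal and model livers, with or without Model 1.

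Ranked by median FPKM, Col18a1 was first in the normal livers at 119.6 (lowest 110.7, highest 139.1) and Col3a1 second at 24.5, with no overlap. Col6a1 at 9.90 and Col6a2 at 8.18 followed Col3a1 and overlapped each other. In the model livers Col3a1 was first at 225.7 and Col18a1 second at 128.8, but their ranges overlapped. Col1a1 followed Col6a1 there at 45.9, with a range from 43.9 to 1289. In the TA livers Col18a1 was first again at 143.2 and Col3a1 second at 106.4, again with overlapping ranges. All 3 groups thus had Col18a1 and Col3a1 in the leading places, and neighbours from the third place to the sixth overlapped within each group.

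In Model VS Normal, collagen genes of every type were higher in the fibrotic livers. Of the 42 members, 29 had enough counts for the test, and 12 of these rose with an adjusted p under 0.05 (edgeR quasi-likelihood, Benjamini-Hochberg over 12730 genes), against 6.86% of all genes tested that rose. At the thresholds the study names for a DEG (p under 0.05 before adjustment, with a log2 change larger than 1 in size), 22 were higher, against 16.6% of all genes tested, and 1 was lower, Col13a1, against 5.55%. The remaining 6 tested members met neither threshold. In 20 of the 29 every model liver was above every normal liver, against 20.8% of all genes. The filter keeps a gene that is counted in only one group, so these shares describe the members that passed it. The median log2 fold change of the 29 was 3.03, against 0.02 for all genes tested. Without Model 1 the median was 1.80, 14 members of 30 rose with an adjusted p under 0.05 (5.75% of all genes), and 19 were higher as DEGs (12.2% of all genes). All 12 members called with Model 1 were among those called without it. The adjusted calls also needed all 3 normal rats: 1 member remained below the threshold without Normal 1, and 0 without Normal 2 or Normal 3, where 17 and 20 still met the DEG thresholds by the same edgeR test. The shares of all genes in the fits without a normal rat are not given here. With all libraries DESeq2 called 14 members, against 2714 of all 16938 genes in either direction. It gave no adjusted p for 8 members. Of these, Col1a1, Col4a2, Col5a1, Col5a2, Col5a3 and Col7a1 had no unadjusted p from it either, so its calls leave them out.

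**Figure D2:**
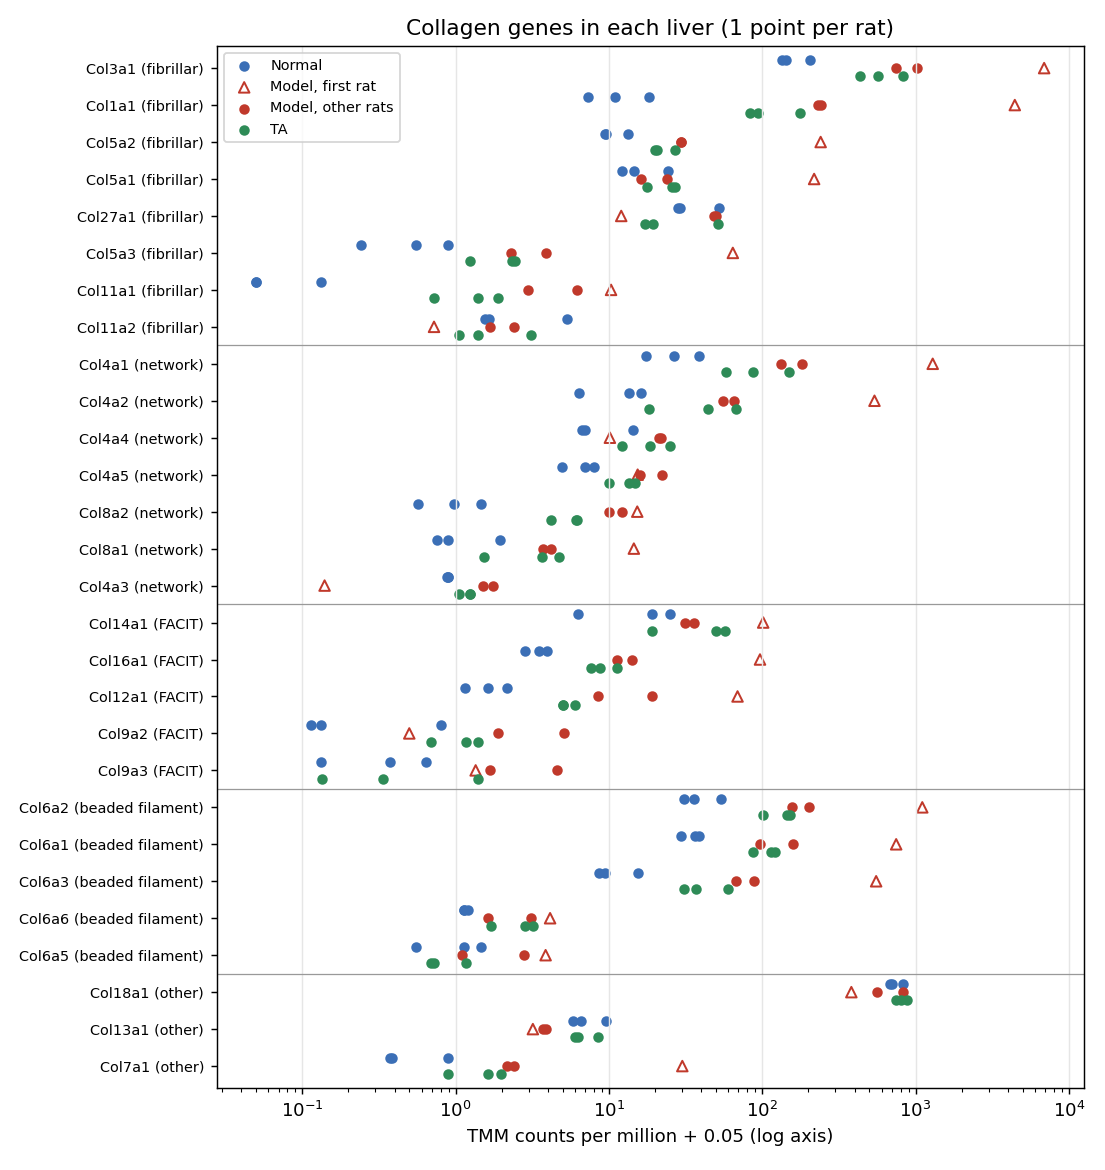
Level of each of the 28 collagen genes with a mean of at least 1 CPM in each liver, as TMM CPM plus 0.05 on a log axis, grouped by collagen type. Each point is 1 rat and the open triangle is Model 1, which was the highest of the 9 livers for 19 of the 28 genes and the lowest for 5.

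Col1a1, which encodes the chain that makes up most of type I collagen, was counted 219, 170 and 87 times in the normal livers. It was counted 98977, 3518 and 3433 times in the model livers and 2467, 1111 and 1122 times in the TA livers. Every model liver was above every TA liver and every TA liver above every normal liver. The log2 fold change in Model VS Normal was 7.08 ± 1.43 (SE, adjusted p = 0.0309), and 4.27 without Model 1 (adjusted p = 0.00225). Col1a1 also took a larger part of the pool relative to Col3a1, the chain of type III collagen. The Col1a1 to Col3a1 ratio of FPKM was 0.0726, 0.0663 and 0.0417 in the normal livers, 0.527, 0.254 and 0.194 in the model livers, and 0.173, 0.136 and 0.158 in the TA livers. These 3 ranges did not overlap.

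Col3a1 was counted 2467, 2097 and 1705 times in the normal livers, 153767, 11308 and 14454 times in the model livers and 11672, 6679 and 5799 times in the TA livers. On the CPM scale the first TA rat, at 831.1, was above Model 2 at 744.3, so that these groups overlapped. Col3a1 rose in Model VS Normal by a log2 fold change of 4.17 ± 0.97 (adjusted p = 0.0420), and by 2.44 without Model 1 (adjusted p = 0.00609).

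Type V collagen, a minor fibrillar type that is built into type I fibrils, moved less evenly. Col5a1 had 175, 187 and 288 counts in the normal livers, 4858, 247 and 337 in the model livers and 379, 305 and 236 in the TA livers. Only Model 1 stood clear, and the log2 fold change in Model VS Normal was 2.36 ± 0.94 with it (adjusted p = 0.144) and 0.23 without it (adjusted p = 0.720). Col5a2 had 114, 146 and 159 counts in the normal livers, 5359, 450 and 418 in the model livers and 377, 234 and 276 in the TA livers. Here all model livers were above all normal ones, at a log2 fold change of 3.22 ± 0.85 (adjusted p = 0.0567) and of 1.45 without Model 1, which passed (adjusted p = 0.0141). Col5a3 had 6, 3 and 10 counts, then 1432, 58 and 32, then 32, 14 and 32 in the normal, model and TA livers. Its log2 fold change was 5.56 ± 1.44 (adjusted p = 0.0545) and 2.58 without Model 1 (adjusted p = 0.0549). The FPKM ratio of Col5a2 to Col5a1 was 0.802 to 1.13 in the normal livers, 1.60 to 2.64 in the model livers and 1.11 to 1.70 in the TA livers.

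Col11a1, a fibrillar chain best known from cartilage, was nearly absent from the normal livers, with 1, 0 and 0 counts. The model livers had 229, 94 and 41 counts and the TA livers 26, 16 and 9, so that the 3 groups did not overlap. Summed over the livers and scaled for depth, the model to normal ratio was 279, with a 95% counting interval from 49.7 to 11030 that covers counting error only. Model VS Normal passed the adjusted threshold (adjusted p = 0.0104), and it did so without Model 1 (adjusted p = 0.00701). The cartilage markers Acan, Comp and Hapln1 summed to 0.336 to 1.74 CPM in the normal livers, 0.197 to 0.763 in the model livers and 0.169 to 2.01 in the TA livers, most of it Comp, and their part in the Col11a1 values was not tested. Its partner Col11a2 had 18, 25 and 63 counts in the normal livers, 15, 36 and 23 in the model livers and 14, 16 and 41 in the TA livers. The groups overlapped, and the log2 fold change of Col11a2 in Model VS Normal was -0.85 ± 0.68 (adjusted p = 0.437), and -0.48 without Model 1.

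Col27a1, a fibrillar chain of cartilage and other tissues, also overlapped between groups. It had 337, 452 and 624 counts in the normal livers, 267, 735 and 704 in the model livers and 242, 228 and 691 in the TA livers. Col27a1 differed by a log2 fold change of 0.01 ± 0.52 between model and normal livers (adjusted p = 0.992), and of 0.42 without Model 1. The other fibrillar members, Col2a1 and Col24a1, had too few counts for the test.

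Among the network collagens, Col4a1 and Col4a2, the chains of the ubiquitous basement membrane collagen, rose together. Col4a1 had 467, 411 and 206 counts in the normal livers, 28844, 2748 and 1862 in the model livers and 2091, 1023 and 783 in the TA livers. Col4a2 had 193, 208 and 76 counts, then 12028, 988 and 785, then 947, 521 and 243. For both genes all model livers were above all normal livers. On the CPM scale the first TA rat was above Model 3 for Col4a1, and above both Model 2 and Model 3 for Col4a2. The log2 fold changes in Model VS Normal were 4.29 ± 0.96 for Col4a1 (adjusted p = 0.0394) and 4.21 ± 0.97 for Col4a2 (adjusted p = 0.0415). Without Model 1 they were 2.49 (adjusted p = 0.00858) and 2.31 (adjusted p = 0.0121). The ratio of Col4a1 to Col4a2 FPKM ran from 1.48 to 2.03 in the normal livers, from 1.78 to 2.09 in the model livers and from 1.47 to 2.42 in the TA livers, so that it overlapped in all groups. These are the genes whose promoter windows share 176 bases above.

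The other type IV chains, which form the basement membranes of kidney, lung and other specialised sites, moved less. Col4a5 had 96, 76 and 83 counts in the normal livers, 342, 339 and 225 in the model livers and 208, 160 and 134 in the TA livers. The 3 groups did not overlap on the CPM scale, and Model 1 was not the highest model liver. Col4a5 rose in Model VS Normal by a log2 fold change of 1.44 ± 0.30 (adjusted p = 0.0324), and by 1.52 without Model 1 (adjusted p = 0.0260). Col4a4 had 83, 103 and 171 counts, then 225, 332 and 299, then 260, 143 and 336 in the normal, model and TA livers, with a log2 fold change of 0.93 ± 0.42 (adjusted p = 0.188), and of 1.20 without Model 1 (adjusted p = 0.0816), where it met the DEG thresholds. Col4a3 had 10, 13 and 10 counts, then 2, 22 and 24, then 14, 14 and 16, and was not tested in Model VS Normal. Col4a6 had at most 15 counts in any liver.

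Type VIII, a short-chain network collagen of vessel walls, gave a member that changed little when Model 1 was left out. Col8a2 had 17, 8 and 11 counts in the normal livers, 340, 151 and 172 in the model livers and 85, 49 and 82 in the TA livers, and the 3 groups did not overlap. The log2 difference between model and normal livers was 3.72 ± 0.44 (adjusted p = 0.00948) and 3.54 without Model 1 (adjusted p = 0.00610). Col8a1 had 23, 11 and 10 counts, then 323, 63 and 52, then 51, 55 and 20. It was higher in all model than in all normal livers, at 2.70 ± 0.69 (adjusted p = 0.0530), and at 1.75 without Model 1 (adjusted p = 0.0910). Col10a1 had at most 6 counts per liver.

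Of the FACIT collagens, Col12a1, which coats type I fibrils, had 19, 17 and 25 counts in the normal livers, 1537, 290 and 120 in the model livers and 84, 59 and 67 in the TA livers. No groups overlapped, and it rose in Model VS Normal by a log2 fold change of 4.35 ± 0.80 (adjusted p = 0.0239), and by 3.11 without Model 1 (adjusted p = 0.00966). Col16a1 had 47, 43 and 41 counts, then 2154, 213 and 158, then 158, 90 and 116. It rose by 3.60 ± 0.85 (adjusted p = 0.0438), and by 1.89 without Model 1 (adjusted p = 0.0131). Col14a1 had 303, 295 and 74 counts in the normal livers, 2260, 474 and 506 in the model livers and 801, 594 and 255 in the TA livers. The model livers were above the normal livers, at 1.75 ± 0.61 (adjusted p = 0.110), and at 0.97 without Model 1 (adjusted p = 0.260).

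The type IX chains, known from cartilage, were low, and Model 2 rather than Model 1 was their highest liver. Col9a2 had 1, 1 and 9 counts in the normal livers, 10, 77 and 26 in the model livers and 9, 16 and 15 in the TA livers. Col9a3 had 1, 5 and 7 counts, then 29, 69 and 23, then 4, 1 and 18. Their log2 fold changes in Model VS Normal were 3.03 ± 1.13 (adjusted p = 0.126) and 2.88 ± 0.79 (adjusted p = 0.0621), and 3.54 and 3.18 without Model 1, where Col9a3 passed (adjusted p = 0.0489). Col20a1 had at most 25 counts per liver and a log2 fold change of -0.24 ± 0.72 (adjusted p = 0.851), and of -0.08 without Model 1.

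Type VI, the beaded filament collagen, is assembled from one chain each of Col6a1, Col6a2 and a chain such as Col6a3. Col6a1 had 435, 461 and 461 counts in the normal livers, 16661, 1468 and 2238 in the model livers and 1698, 1340 and 1170 in the TA livers. Col6a2 had 431, 478 and 644 counts, then 24660, 2393 and 2868, then 2127, 1189 and 1931. Col6a3 had 185, 134 and 111 counts, then 12332, 1025 and 1243, then 836, 440 and 415. For all of them the model livers were above the normal livers without overlap. The log2 fold changes in Model VS Normal were 3.27 ± 0.76 for Col6a1 (adjusted p = 0.0423), 3.61 ± 0.80 for Col6a2 (adjusted p = 0.0394) and 4.42 ± 0.88 for Col6a3 (adjusted p = 0.0294). Without Model 1 they were 1.86, 2.15 and 2.79, with adjusted p of at most 0.00892. The FPKM ratio of Col6a3 to Col6a1 was 0.0675 to 0.119 in the normal livers, 0.156 to 0.208 in the model livers and 0.0921 to 0.138 in the TA livers.

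The alternative chains Col6a5 and Col6a6 were low. Col6a6 had 13, 18 and 13 counts in the normal livers, 91, 24 and 43 in the model livers and 39, 37 and 22 in the TA livers, with a log2 fold change of 1.39 ± 0.49 in Model VS Normal (adjusted p = 0.113). Without Model 1 it was 1.03 (adjusted p = 0.263) and no longer met the DEG thresholds. Col6a5 had 6, 22 and 13 counts, then 85, 16 and 39, then 9, 8 and 15, and its groups overlapped at 1.34 ± 0.63 (adjusted p = 0.199), or 0.88 without Model 1. Col6a4 had at most 25 counts per liver.

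Among the other types, Col18a1 was the most counted, with 9931, 10832 and 8093 counts in the normal livers, 8498, 12589 and 7945 in the model livers and 12310, 9442 and 10066 in the TA livers. On the CPM scale Model 1 was lowest at 381.4 and the first TA rat highest at 876.5, and the groups overlapped. The log2 fold change in Model VS Normal was -0.31 ± 0.42 (adjusted p = 0.650), -0.09 without Model 1, and 0.25 when libraries were scaled by their totals alone, a scaling that moved the median of all genes to 0.65. The FPKM ratio of Col3a1 to Col18a1 was 0.203 to 0.261 in the normal livers, 19.0, 0.944 and 1.91 in the model livers and 0.996, 0.743 and 0.605 in the TA livers. That ratio did not overlap between the normal livers and either other group.

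Col13a1, a membrane collagen, was the only member lower in the model group at the DEG thresholds. It had 79, 90 and 114 counts in the normal livers, 70, 58 and 52 in the model livers and 84, 74 and 113 in the TA livers. On the CPM scale the model livers, at 3.14, 3.82 and 3.68, lay below all normal livers, at 6.56, 5.79 and 9.57. The log2 fold change was -1.04 ± 0.34 (adjusted p = 0.0932), -0.97 without Model 1 and -0.43 with library totals alone. Col7a1, the anchoring fibril collagen, had 4, 5 and 10 counts, then 670, 36 and 30, then 22, 10 and 26. Its model livers were above the normal ones, at 4.55 ± 1.19 (adjusted p = 0.0568) and 2.16 without Model 1 (adjusted p = 0.0729). Col17a1, a membrane collagen of epithelial attachment, had 1, 3 and 6 counts, then 55, 12 and 13, then 5, 1 and 5, at 2.43 ± 0.79 (adjusted p = 0.0951). Without Model 1 it was 1.69 (adjusted p = 0.239) and no longer met the DEG thresholds. Col15a1 was counted 32 times in Model 1, 4 times in the first TA rat and never in the other 7 livers.

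**Figure D3:**
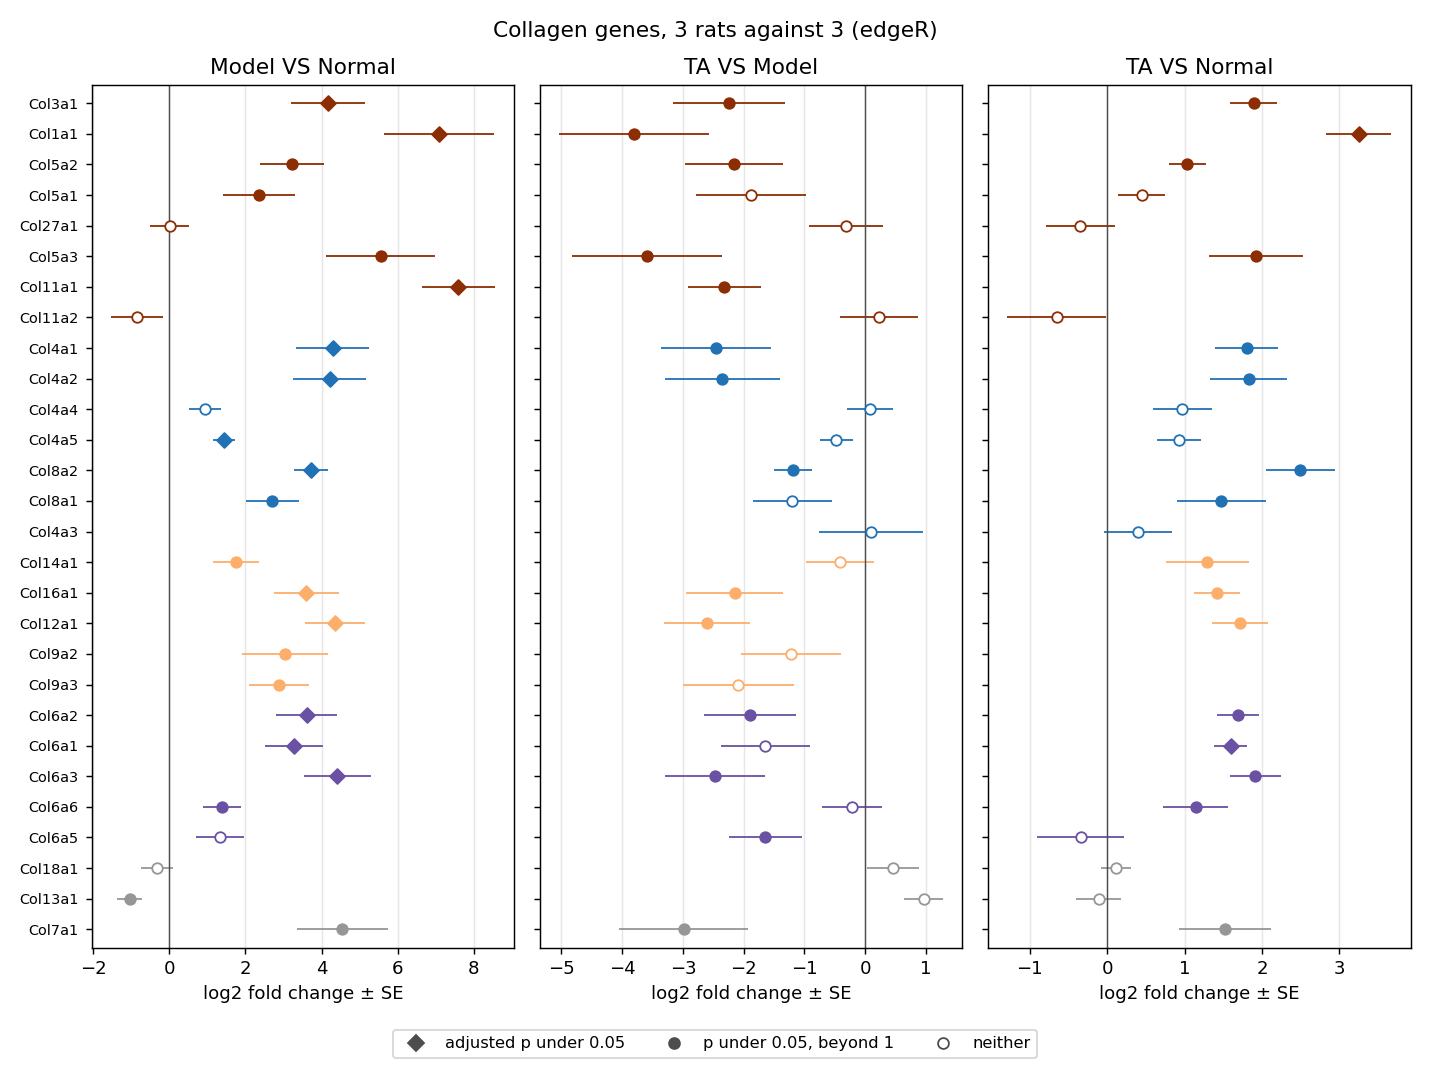
Log2 fold change with its standard error for the named collagen genes in the 3 comparisons, coloured by collagen type as in the plot of summed levels. Diamonds mark an adjusted p under 0.05 (12 tested collagen genes in Model VS Normal, none in TA VS Model, 2 in TA VS Normal), filled circles the DEG thresholds alone and open circles neither. The Col11a1 point in Model VS Normal rests on 1 normal count and depends on the prior count of the fit.

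In TA VS Model, collagen genes of each type had lower values in the TA group, but 0 members passed the adjusted threshold by edgeR (adjusted p between 0.246 and 0.963 over the 30 tested). No other gene passed either, so that 0.0% of all 12781 genes were called, although 1999 genes and 16 members had an unadjusted p under 0.05. DESeq2 called 4 members lower, Col11a1, Col12a1, Col6a3 and Col8a2, against 2.69% of all genes, and gave no adjusted p for 11 members. Of these, Col1a1, Col5a1, Col5a2, Col5a3 and Col7a1 had no unadjusted p from it either. At the DEG thresholds 15 members were lower in the edgeR fit, against 10.2% of all genes. In 10 members every TA liver was below every model liver, against 12.8% of all genes. The median log2 fold change of the 30 was -1.76, against -0.004 for all genes. Without Model 1 the median was -0.50 and 5 members were lower at the DEG thresholds, against 4.96% of all genes. Of these 5, Col11a1, Col12a1 and Col8a2 were also among the 15, and Col9a2 and Col9a3 were not. The count of 15 became 9 without the first TA rat, 3 without the second and 6 without the third. The shares of all genes in the fits without a TA rat are not given here, so this drop cannot be set against theirs.

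The sizes of these differences depended on Model 1 for the most counted members. Col1a1 differed by -3.80 ± 1.24 on the log2 scale (adjusted p = 0.264), and by -0.999 without Model 1 (adjusted p = 0.457). Col3a1 was at -2.25 ± 0.92 (adjusted p = 0.306), and at -0.52 without Model 1 (adjusted p = 0.694). Col4a1 was at -2.45 ± 0.91 (adjusted p = 0.282), and at -0.66 without Model 1 (adjusted p = 0.643). Col5a3 went from -3.59 to -0.62 and Col6a3 from -2.47 to -0.86. With Model 1 all of these met the DEG thresholds, and without it none did. Col5a1 and Col14a1 turned from -1.88 and -0.42 to 0.24 and 0.34 without Model 1, and met the DEG thresholds in neither fit.

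Col8a2, Col11a1 and Col12a1 met the DEG thresholds in both fits. Col8a2 was at -1.19 ± 0.31 (adjusted p = 0.246), and at -1.01 without Model 1 (adjusted p = 0.396). Col11a1 was at -2.32 ± 0.60 (adjusted p = 0.246), and at -1.79 without Model 1 (adjusted p = 0.399). Col12a1 was at -2.60 ± 0.71 (adjusted p = 0.252), and at -1.36 without Model 1 (adjusted p = 0.374). For each of them all TA livers were below all model livers. Col13a1 lay the other way, with TA livers at 5.98, 6.26 and 8.43 CPM above all model livers, at 0.96 ± 0.32 (adjusted p = 0.264), or 0.89 without Model 1. Col18a1 was at 0.46 ± 0.43 (adjusted p = 0.602), or 0.23 without Model 1, with overlapping groups.

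**Figure D4:**
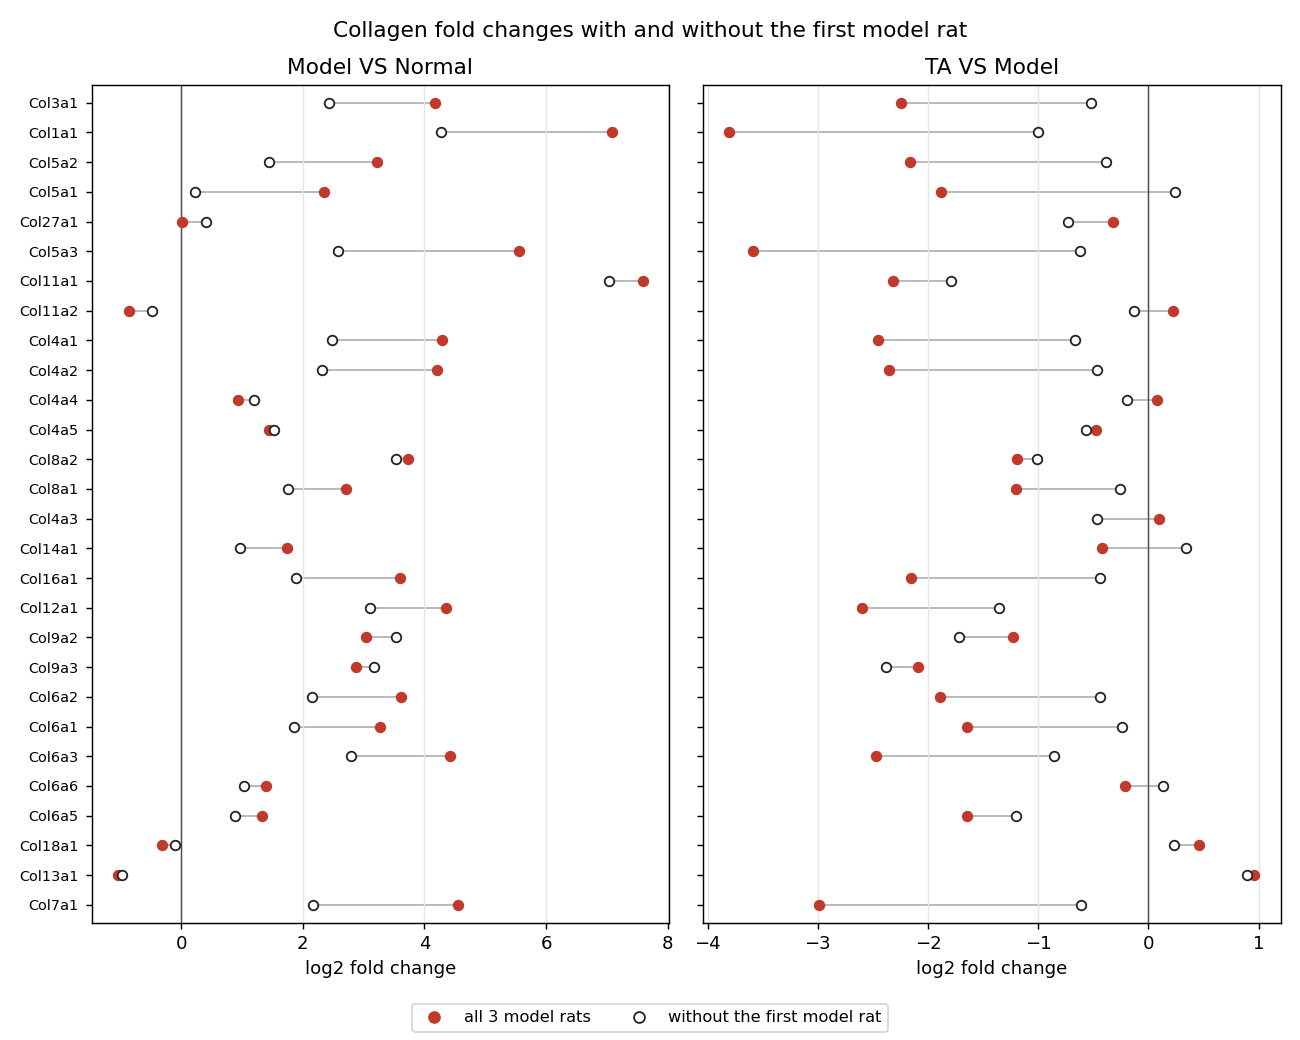
Log2 fold change of the named collagen genes fitted with all 3 model rats (filled) and without the first (open), in Model VS Normal on the left and TA VS Model on the right. The lines join both values of a gene: Col1a1 moves from 7.08 to 4.27 and from -3.80 to -0.999, while Col8a2 moves from 3.72 to 3.54 and from -1.19 to -1.01.

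In TA VS Normal, where Model 1 takes no part, the treated livers still held more collagen RNA than the normal livers. Of 25 members tested, Col1a1 and Col6a1 rose with an adjusted p under 0.05, against 0.23% of all 12179 genes tested that rose. At the DEG thresholds 16 members were higher and none lower, against 4.24% of all genes higher. In 16 members every TA liver was above every normal liver, against 9.07% of all genes. The median log2 fold change of the 25 was 1.42, against -0.01 for all genes. Same-numbered TA and normal rats, which are different animals, deviated together from their group means. A block judged on these same counts may give an adjusted p that is too small. With the replicate number as a block 10 members rose with an adjusted p under 0.05, against 1.31% of all genes. These were Col1a1, Col3a1, Col4a1, Col4a2, Col6a1, Col6a2, Col6a3, Col8a2, Col14a1 and Col16a1. The count of 2 without the block became 0 when any 1 normal rat or the first TA rat was left out, 1 without the second TA rat and 4 without the third. In those fits with 0 adjusted calls, between 11 and 16 members met the DEG thresholds by the same edgeR test. The shares of all genes in those fits are not given here. With all libraries DESeq2 called 12 members, against 332 of all 16730 genes in either direction. Both comparisons with the TA group share its libraries, so their values are given side by side and not as separate evidence.

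Col1a1 was 3.25 ± 0.42 on the log2 scale above normal in the TA livers (adjusted p = 0.0236, or 0.00127 with the block), a 9.51-fold difference. Col6a1 was 1.59 ± 0.21 above normal (adjusted p = 0.0255, or 0.0119 with the block). Col3a1 was at 1.89 ± 0.30 (adjusted p = 0.0522, or 0.00536 with the block), Col6a2 at 1.69 ± 0.27 (adjusted p = 0.0545, or 0.00746) and Col6a3 at 1.91 ± 0.33 (adjusted p = 0.0688, or 0.00328). Col8a2 was at 2.50 ± 0.45 (adjusted p = 0.0791, or 0.0203 with the block). The basement membrane pair had 1.80 ± 0.41 for Col4a1 and 1.83 ± 0.50 for Col4a2 (adjusted p = 0.140 and 0.220, or 0.00290 and 0.00656 with the block). For each of these 8 genes all TA livers were above all normal livers. Col11a1 had 51 counts in the TA livers against 1 in the normal livers, a ratio of 51.3 with a 95% counting interval from 8.80 to 2065. At the other end, Col18a1 was 0.11 ± 0.20 from normal, Col13a1 -0.11 ± 0.30 and Col27a1 -0.34 ± 0.44, each with an adjusted p of at least 0.919 and overlapping groups.

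The genes that make, trim, link, bind and degrade collagen were counted from a list of 49, of which 47 were analysed and 37 could be tested in Model VS Normal. Of these 37, 13 rose with an adjusted p under 0.05 (6.86% of all genes) and none fell. As DEGs 22 were higher (16.6% of all genes) and 1 was lower, Loxl4 (5.55% of all genes). Without Model 1, 12 rose (5.75% of all genes) and 18 were higher as DEGs (12.2%). There Loxl4, at a log2 fold change of -0.88, was not a DEG, and the 1 lower was Bmp1, at -1.02 (3.77% of all genes). In TA VS Model 0 of 38 passed the adjusted threshold by edgeR (0.0% of all genes), 17 had an unadjusted p under 0.05 and 16 were lower as DEGs (10.2% of all genes), and 7 without Model 1 (4.96%). In TA VS Normal 2 of 37 rose, Adamts2 and Loxl1 (0.23% of all genes), and 14 were higher as DEGs (4.24%). With the replicate block 10 rose (1.31% of all genes) and 1 fell, Lox.

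Enzymes and chaperones of chain synthesis were split. P4hb, a subunit of prolyl 4-hydroxylase, had a log2 fold change of -0.03 in Model VS Normal (adjusted p = 0.974), and its partner P4ha1 one of 0.05 (adjusted p = 0.952), or -0.06 and -0.43 without Model 1. Plod2, the lysyl hydroxylase of collagen telopeptides, rose from 2.33, 1.03 and 2.27 CPM in the normal livers to 114, 30.9 and 23.1 in the model livers, with 10.97, 8.63 and 10.1 in the TA livers. Against the normal livers the model livers differed by a log2 fold change of 4.91 (adjusted p = 0.0135), or 3.85 without Model 1, and the TA livers differed from the model livers by -2.50, or -1.43 without Model 1. Fkbp10, a chaperone in the same step, rose by 4.62 and by 2.76 without Model 1. Serpinh1, the collagen chaperone HSP47, was at 37.1, 22.1 and 10.8 CPM in the normal livers, 667, 83.1 and 62.0 in the model livers and 55.2, 42.5 and 36.2 in the TA livers, with a log2 fold change of 3.54 in Model VS Normal (adjusted p = 0.0652), and of 1.62 without Model 1. In all, 3 of 15 tested genes of chain synthesis rose (Plod2, Fkbp10 and P3h4), against 6.86% of all genes. Without Model 1 the first 2 of them did, against 5.75%.

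Among enzymes that remove propeptides, Adamts2 rose from 5.73, 3.61 and 3.86 CPM in the normal livers to 126, 49.5 and 40.4 in the model livers, and stood at 42.9, 22.5 and 26.5 in the TA livers. It was 4.04 higher on the log2 scale in the model livers (adjusted p = 0.0104), or 3.34 without Model 1, and 2.77 higher in the TA livers (adjusted p = 0.0218) than in the normal livers. Pcolce, which enhances propeptide cleavage, rose by 3.62 in Model VS Normal, and by 2.44 without Model 1, while the protease itself, Bmp1, was at -0.97 (adjusted p = 0.106), and at -1.02 without Model 1. The crosslinking enzyme Loxl1 rose from 3.57, 2.12 and 3.11 CPM to 238, 62.6 and 49.2, and stood at 29.3, 16.5 and 15.4 in the TA livers. All Loxl1 values of the 3 groups were apart, and its log2 fold change in Model VS Normal was 5.32, or 4.24 without Model 1. Lox, the founding lysyl oxidase, differed from it, at 106, 87.2 and 25.9 CPM in the normal livers, 133, 47.3 and 35.7 in the model livers and 18.7, 14.2 and 14.8 in the TA livers. All TA livers were below all others for Lox, at a log2 fold change of -2.18 against the model livers, or -1.37 without Model 1, and -2.23 against the normal livers.

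Of the receptors, Ddr1, a collagen-binding receptor kinase of epithelial cells, rose by 3.09 in Model VS Normal, and by 2.76 without Model 1. Mrc2, the receptor that takes up collagen for degradation, rose by 5.08, and by 4.42 without Model 1. Ddr2, the counterpart of Ddr1 in fibroblasts, rose by 3.18, but at 2.37 without Model 1 it no longer passed the adjusted threshold. All 8 tested genes of breakdown, proteases and their inhibitors, were higher as DEGs in Model VS Normal, against 16.6% of all genes. Without Model 1, 7 of the 8 were, and Mmp14 was not (1.53 with Model 1 and 0.74 without it), against 12.2% of all genes. Mmp2, a gelatinase, was at 18.4, 9.66 and 6.04 CPM in the normal livers, 375, 70.9 and 97.4 in the model livers and 74.9, 55.5 and 51.8 in the TA livers. Timp1, an inhibitor of these proteases, was at 4.82, 3.54 and 4.45 CPM, then 161, 38.8 and 19.2, then 19.3, 8.80 and 9.92. Both rose in Model VS Normal, by 4.001 and 4.10, and by 2.87 and 2.75 without Model 1. Mmp13, the main collagenase of rodents, stayed below 1 CPM in every liver.

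Markers of the cells that could carry collagen RNA differed between the groups as well. The 5 portal fibroblast markers summed to 9.33 to 16.4 CPM in the normal livers, 358.9 in Model 1, 107.4 and 139.7 in the other model livers and 48.4 to 76.2 in the TA livers. Most of the sum in each liver was Eln. Its levels were 12.4, 7.47 and 11.7 CPM in the normal livers, 306.5, 121.7 and 101.6 in the model livers and 71.9, 46.4 and 66.1 in the TA livers. As DEGs 4 of the 4 markers tested were higher in Model VS Normal, against 16.6% of all genes, and 3 without Model 1, where Fbln2 was not, against 12.2%. The 6 stellate cell markers summed to 51.2 to 77.8 in the normal livers, 413.8 in Model 1, 130.8 and 138.9 in the other model livers and 96.4 to 120.2 in the TA livers. Des and Pdgfrb rose in Model VS Normal, with and without Model 1, and the other 3 tested, Lrat, Reln and Hand2, did not pass. The 5 myofibroblast markers summed to 29.6 to 38.0 in the normal livers, to 670.0 in Model 1 and 47.5 and 92.1 in the other model livers, and to 19.9 to 64.2 in the TA livers. In Model 1 Postn alone was at 293.9. Acta2, Tagln and Postn were higher as DEGs in Model VS Normal, with and without Model 1, against 16.6% and 12.2% of all genes. Myh11 and Cnn1 were not, at 0.26 and 1.07, or -0.45 and -0.36 without Model 1. All 5 cholangiocyte markers rose, with and without Model 1, against 6.86% and 5.75% of all genes. Their sums went from 15.9 to 23.8 in the normal livers to 86.2 to 158.7 in the model livers, with 29.7 to 34.6 in the TA livers. The 4 mesothelium markers went from 0.839 to 2.49 to between 25.0 and 82.9, and to between 4.65 and 12.2 in the TA livers, mostly through Msln. No hepatocyte marker passed in Model VS Normal, but their sum was 129649 to 165165 in the normal livers, 36649 in Model 1, 101691 and 113845 in the other model livers and 110996 to 182845 in the TA livers. Apoa1 in Model 1, at 815.6, lay within its normal range of 652.5 to 1789, and the other markers there lay below all normal livers. Without Model 1 none passed the adjusted threshold either, but Ttr was lower as a DEG, at -1.35, against 3.77% of all genes. The endothelial marker Pecam1 was not analysed here. The other 5 summed to 154.8 to 188.3 in the normal livers, 322.8 in Model 1, 146.4 and 186.3 in the other model livers and 168.7 to 234.9 in the TA livers. As DEGs in Model VS Normal Cdh5 and Vwf were higher (16.6% of all genes) and Kdr lower (5.55%). Without Model 1 only Vwf was, at 1.43 (12.2% of all genes), and Cdh5 and Kdr, at 0.77 and -0.996, were not. Macrophage markers summed to 266.9 to 335.4 in the normal livers, 648.6 in Model 1, 185.4 and 246.4 in the other model livers and 246.6 to 571.9 in the TA livers. Their members went opposite ways, with Cd68, Csf1r and Adgre1 higher and Marco lower as DEGs in Model VS Normal, and without Model 1 none higher and Marco, Clec4f and Cd163 lower. Lymphocyte markers summed to 5.92 to 9.72 in the normal livers, 8.26 in Model 1, 15.6 and 16.7 in the other model livers and 9.11 to 10.7 in the TA livers. Pancreas and skeletal muscle markers summed to at most 0.197 and 4.41 CPM in any liver. Of 4 adipocyte markers only Cidec, which steatotic hepatocytes also express, was above 1 CPM, at 86.7 to 99.9, 15.4 to 49.6 and 66.3 to 100.6. The part of these cells in the collagen values was not tested.

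The 14 members with a mean below 1 CPM were Col2a1 and Col24a1 (fibrillar), Col4a6 and Col10a1 (network), Col9a1, Col20a1 and Col22a1 (FACIT), Col6a4 (beaded filament), and Col15a1, Col17a1, Col23a1, Col25a1, Col26a1 and Col28a1. None had more than 55 counts or 2.47 CPM in any liver. Scaled for depth, Col4a6 had 26 counts in the model livers against 1 in the normal livers, a ratio of 19.9 with a 95% counting interval from 3.27 to 815.6. Col6a4 had 2 counts in the TA livers against 36 in the model livers, a ratio of 0.0730 with an interval from 0.00852 to 0.284. Of these model counts, 25 came from Model 1. Col10a1 in TA VS Model (0.131, interval from 0.00303 to 0.924) and Col26a1 in TA VS Normal (0.0914, from 0.00212 to 0.629) also lay below 1. The intervals of these genes pool the livers of a group and leave out the spread between rats, so they show no difference between groups. At this depth no difference could be shown for most of the others either.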

How the data were processed

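Poly(A) RNA from whole liver was sequenced in paired ends on an Illumina instrument. Per the study's methods, reads were trimmed, mapped with STAR and counted with HTSeq-count. The methods name a human genome and the submitters' processing notes a mouse build, while the tables carry rat symbols, so the build was not settled and no coordinates were taken from the tables. The deposited tables hold the raw counts per gene that the authors made, the authors' FPKM (a level per transcript length and library depth), and the authors' normalized signal (counts divided by size factors), which was not used. They also hold the authors' own fold changes and p-values for Model VS Normal and TA VS Model, which were not used.

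Samples were grouped by their labels, with 3 livers each. The labels do not say that the livers of a group came from separate cages or days, so p-values measure the spread between these livers only. Each pair of groups was fitted with edgeR 4.0.16 (TMM, filterByExpr, glmQLFit and glmQLFTest, R 4.3.3) on all genes, with Benjamini-Hochberg adjustment over all genes tested, and SE was taken from the F statistic. Normal and TA libraries come from separate tables of raw counts, and TA VS Normal was fitted on the 16730 genes listed in both. The script was tested on simulated data. An exact permutation test of 3 against 3 cannot go below 0.1, so that overlap of the groups is given instead. Counting intervals are exact at 95% and cover counting error only. Alternatives were DESeq2 1.42.0, the newer form of the fit, other scalings, filters and libraries, and the replicate number as a block. Same-numbered rats are different animals, and the labels give no pairing beyond the number. In TA VS Normal their deviations from the group means correlated at 0.258, 0.426 and 0.501, all over 0.1. The block fit is therefore given beside the main fit there. The block was judged on the same counts that it was then fitted to, so its adjusted p may be too small. Strand-aware counting is not given in the sources used here, so reads of a gene and of an overlapping or antisense gene cannot be told apart.

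Collagen genes with a mean of at least 1 CPM over the 9 livers are described liver by liver and the other 14 by ranges. Promoters came from RefSeq (GRCr8), matched by symbol, which was found for all 42 genes, with a promoter window for 33. The members and all gene lists were chosen with earlier results of these data known.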

Additional observations from a re-analysis of the deposited data

How the results depend on the processing

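The number of collagen genes that rose in Model VS Normal at an adjusted p under 0.05 was 12. It was 14 with DESeq2, 19 with library totals alone and 0 to 17 when each library was left out. Of all genes tested, 1002 of 12730 were called in either direction in the main fit. DESeq2 called 2714 of 16938, and library totals alone gave 1980 of 12730. In TA VS Model 0 collagen genes passed the adjusted threshold by edgeR (0.0% of all genes) and 4 by DESeq2, lower in the TA group (2.69%). The 15 lower at the DEG thresholds (10.2% of all genes) became 3 to 17 when each library was left out. In TA VS Normal the 2 adjusted calls became 12 by DESeq2, 10 with the replicate block and 6 without a filter. They became 4 with library totals alone, 4 with the newer form of the fit and 0 with all 9 libraries in 1 edgeR fit (11 at the DEG thresholds). They became 0 to 4 when each library was left out. Of all genes tested, 32 of 12179 were called in either direction in the main fit, 203 with the block and 56 with library totals alone. DESeq2 called 332 of 16730. The shares of all genes in the remaining fits are not given in this section. The summed level of TA against model livers, 0.291, was 0.748 with medians in place of means, an alternative chosen after seeing the data, and 0.220 to 0.808 when each library was left out. Where 1 liver was left out, the remaining ones of its group and those of the other group gave the spread together.

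Same-numbered livers did not deviate together in the other comparisons (correlations of 0.210, -0.0567 and -0.0519 in Model VS Normal and 0.218, -0.0355 and 0.00655 in TA VS Model), and not every liver correlated best with its own number. With the replicate block 15 collagen genes rose in Model VS Normal at an adjusted p under 0.05, against 994 of all 12730 genes. At the DEG thresholds 20 were higher, against 15.6% of all genes. In TA VS Model 0 were lower at an adjusted p under 0.05, as were 0 of all 12781 genes. There 12 were lower at the DEG thresholds, against 9.3% of all genes.

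Some signs turned. In Model VS Normal, Col18a1 turned to 0.25 with library totals alone, and Col27a1 (0.01) to -0.016 with DESeq2, -0.011 with its size factors, -0.0031 without a filter and -0.17 with the replicate block, with -0.29 to 0.42 when each library was left out. With library totals alone, TA VS Model turned to -0.16 for Col11a2, -0.20 for Col4a3 and -0.31 for Col4a4, and TA VS Normal to 0.077 for Col13a1. When each library was left out, TA VS Model ran from -0.38 to 0.67 for Col11a2, -0.70 to 0.34 for Col14a1, -0.47 to 0.61 for Col4a3, -0.20 to 0.32 for Col4a4, -2.36 to 0.24 for Col5a1 and -0.50 to 0.13 for Col6a6. TA VS Normal ran from -1.27 to 0.18 for Col11a2, -0.28 to 0.12 for Col13a1, -1.02 to 0.00042 for Col27a1 and -0.66 to 0.0029 for Col6a5. The causes were not tested. Library totals alone moved the median log2 fold change of all genes to 0.65 in Model VS Normal, -0.48 in TA VS Model and 0.18 in TA VS Normal. DESeq2 called 2714, 520 and 332 of all genes in either direction in the 3 comparisons, and gave no adjusted p for 8, 11 and 5 collagen genes. Of the values for single genes, 969 kept their direction and side of the threshold, 65 passed it anew, 48 no longer passed it and 26 changed sign.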
